A study of Homo sapiens with 8 samples.

Results

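The genes described here are PTGS2 and 7 further genes that make, break down or sense prostaglandins, measured in HCT116, an established cell line from a human colorectal carcinoma. The members were PTGS2, PTGS1, PTGES, PTGES2, PTGES3, HPGD, PTGER2 and PTGER4, chosen by the gene symbol of their probe sets, and all 8 were among the 18417 genes measured. Each was represented by 1 probe set that the array annotation pairs with that gene alone. PTGS2 heads the set because its serum response differed between the cell lines in an earlier look at these arrays, so its values in every comparison are given as a description with no test. The other 7 genes were tested in a fit across all genes.

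The cells carried either a short hairpin RNA against CDK8 (shCDK8), the kinase of the Mediator complex's kinase module, or a control hairpin (shControl). The 4 groups of 2 arrays were shCDK8 cells given 10% fetal bovine serum for 30 min, starved shCDK8 cells, shControl cells given the same serum for 30 min, and starved shControl cells. Cells of all groups had first been kept without serum for 40 h, and no group was left in serum throughout. The labels name 1 hairpin per arm, and the effect of losing CDK8 cannot be told apart from any other difference between the lines. The labels speak of duplicates without saying whether these were separate cultures, and p-values therefore reflect only the spread of these particular samples, possibly a technical one. In RNA from whole cultures, fewer cells that express a gene and less RNA per cell cannot be told apart.

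Prostaglandin synthesis starts when a phospholipase frees arachidonic acid from membranes. A cyclooxygenase, PTGS1 (COX-1) or PTGS2 (COX-2), turns it into prostaglandin H2, from which terminal synthases make prostaglandin E2 and its relatives. Prostaglandin E2 acts on several receptors, of which EP2 (PTGER2) and EP4 (PTGER4) raise cyclic AMP, and is inactivated by the dehydrogenase HPGD. PTGS1 is made constitutively in many tissues, whereas PTGS2 is an immediate-early gene that growth factors and cytokines induce. PTGS2 is often high and HPGD often low in colorectal tumours.

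Levels are log2 probe set summaries. The median of an array lay between 6.44 and 6.51, and across genes the duplicates had an r of 0.997 to 0.998. The probe set of the targeted gene, 7968199, annotated to CDK8 and to ADRA1B, read 6.99 to 7.09 on the shCDK8 arrays and 9.19 to 9.23 on the shControl arrays. All 6 epithelial markers (EPCAM, KRT8, KRT18, KRT19, CDH1 and CLDN4) lay above the 75th percentile of mean level. The measured blood markers (5 of 6 listed) and the 5 endothelial markers lay below the 50th percentile, as did 5 of the 6 fibroblast markers, with COL1A1 at the 70.5th. PTGS2, PTGS1, HPGD and PTGER2 were dim, with a mean level at or below the 25th percentile of all genes, and PTGES, PTGES2, PTGES3 and PTGER4 lay above it.

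The promoter windows of the 3 members whose levels set groups apart most clearly are shown first, PTGS2 and PTGER4 for serum and PTGES for the cell lines. Each runs from 250 bases before to 50 after the start site, is taken from RefSeq on GRCh38.p14 and reads 5′ to 3′ on the gene's strand. Capitals mark matches to the motifs named below.
PTGS2, chr1:186680374-186680673, minus strand: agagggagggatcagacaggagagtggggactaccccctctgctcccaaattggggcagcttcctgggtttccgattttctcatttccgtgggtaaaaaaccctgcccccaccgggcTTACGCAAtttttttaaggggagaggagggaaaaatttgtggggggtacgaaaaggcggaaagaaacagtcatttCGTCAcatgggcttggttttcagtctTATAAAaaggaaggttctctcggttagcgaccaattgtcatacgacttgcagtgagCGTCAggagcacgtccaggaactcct
PTGER4, chr5:40679665-40679964, plus strand: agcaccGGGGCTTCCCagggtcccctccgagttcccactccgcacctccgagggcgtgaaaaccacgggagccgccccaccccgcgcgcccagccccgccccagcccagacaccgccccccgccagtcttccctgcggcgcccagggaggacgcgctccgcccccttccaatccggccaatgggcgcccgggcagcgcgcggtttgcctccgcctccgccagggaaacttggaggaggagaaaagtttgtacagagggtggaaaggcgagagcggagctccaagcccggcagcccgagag
PTGES, chr9:129752993-129753292, minus strand: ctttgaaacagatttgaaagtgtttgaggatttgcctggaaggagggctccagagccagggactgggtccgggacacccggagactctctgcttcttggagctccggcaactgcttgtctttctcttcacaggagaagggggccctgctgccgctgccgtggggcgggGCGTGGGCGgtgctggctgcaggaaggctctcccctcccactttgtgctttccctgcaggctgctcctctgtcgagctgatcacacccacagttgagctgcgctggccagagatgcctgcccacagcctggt

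The motifs were searched on both strands. They were the half-site of the cyclic AMP response element (TGACG), which also lies inside the full element (TGACGTCA), a C/EBP site (TTNNGCAA), a TATA box (TATAAA), an E-box (CACGTG), an EGR site (GCGNGGGCG), and the NF-kB site and CArG box. Positions count from the start site at 1, with no 0. The PTGS2 window held a C/EBP match from -133 to -126, a cyclic AMP half-site from -58 to -54, a TATA box from -32 to -27 and a second half-site from 25 to 29. Of all 35116 windows, 10.5% held the C/EBP letters, 24.6% the half-site and 11.5% the TATA box. The PTGER4 window held an NF-kB match from -244 to -235, read on both strands, as 11.3% of windows did on either strand. The PTGES window held an EGR match from -82 to -74, a motif found in 9.43% of windows. None of the windows of the 8 members held the full cyclic AMP element or a CArG box, which 1.85% and 1.29% of all windows held. These matches are letters in a window and do not show that a factor binds.

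PTGS2, the inducible cyclooxygenase, was high after serum in shControl cells alone. It read 4.60 and 4.88 in serum-treated shCDK8 cells, against 4.31 and 4.65 in starved shCDK8 cells. In shControl cells it read 6.06 and 5.90 after serum, against 4.40 and 4.38 when starved. Both serum-treated shControl arrays stood more than 1 log2 unit above every other array, and the other 3 groups lay close together. In order of the group means, serum-treated shControl cells (5.98 ± 0.12, SD, n = 2) came first, then serum-treated shCDK8 cells (4.74 ± 0.20), starved shCDK8 cells (4.48 ± 0.24) and starved shControl cells (4.39 ± 0.02). Serum-treated and starved shCDK8 arrays overlapped, and so did the starved arrays of both lines.

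As a change, the serum response of PTGS2 was 0.27 ± 0.12 (log2, SE), or 1.20-fold, in shCDK8 cells and 1.59 ± 0.12, or 3.01-fold, in shControl cells. The response in shCDK8 cells minus that in shControl cells was -1.32 ± 0.18. Between the lines PTGS2 differed by -1.23 ± 0.12 after serum, a level 2.35-fold lower in shCDK8 cells, and by 0.09 ± 0.12 before it. The PTGS2 probe set was dim, and whether it stood above background in the 3 lower groups was not tested. These folds describe probe set levels and may be lower bounds of the change in transcript. The spread of the starved shCDK8 duplicates bears on the small response there: without array 1 of that group it was 0.094 and without array 2 it was 0.44, and the starved line difference was 0.26 and -0.081 in those fits. PTGS2 was named for this contrast, which used all 4 groups, and these values support no claim by themselves. In limma's test of the difference of responses with Benjamini-Hochberg adjustment, 0 of the 18417 genes passed (0%), and 703 (3.82%) had an unadjusted p below 0.05. An intensity trend in the variance prior let 7 genes pass.

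**Figure D1:**
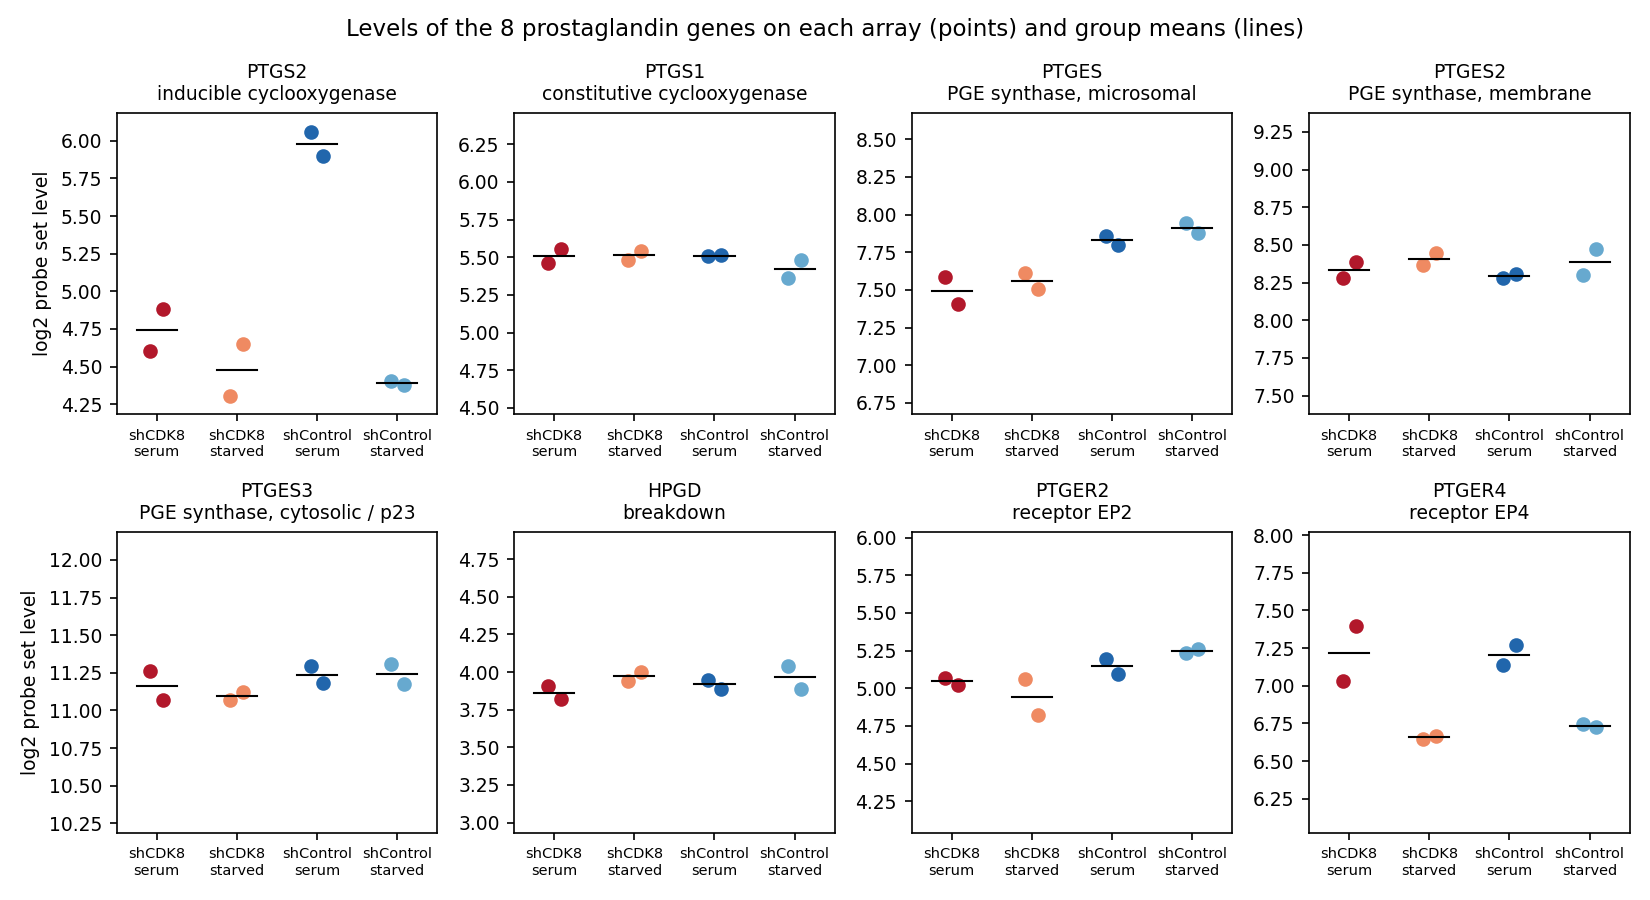
Log2 probe set level (y axis) of each of the 8 prostaglandin genes on every array (points) in the 4 groups (x axis), with group means as lines. Every panel spans the same 2 log2 units around its own midpoint, since levels of different probe sets cannot be compared. PTGS2 stands apart at 6.06 and 5.90 in serum-treated shControl cells, PTGER4 is higher after serum in both lines, and PTGES is lower in shCDK8 cells at both times.

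PTGS1, the constitutive cyclooxygenase, stayed within 0.19 log2 units over all 8 arrays. It read 5.46 and 5.55 in serum-treated shCDK8 cells, 5.48 and 5.54 in starved shCDK8 cells, 5.51 on both serum-treated shControl arrays, and 5.36 and 5.48 in starved shControl cells. Neighbouring groups in the order of its levels overlapped throughout. The starved shControl arrays did not overlap with those of serum-treated shControl or starved shCDK8 cells. Its serum response was -0.01 in shCDK8 cells (95% interval -0.16 to 0.15) and 0.09 in shControl cells (-0.07 to 0.24).

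PTGES, the microsomal prostaglandin E synthase that is often induced together with PTGS2, fell in shCDK8 cells relative to shControl cells at both times. After serum it read 7.58 and 7.41 in shCDK8 cells, against 7.86 and 7.80 in shControl cells. In starved cells it read 7.61 and 7.51 in shCDK8 cells, against 7.94 and 7.88 in shControl cells. The lines did not overlap at either time. The change was -0.33 ± 0.08 after serum (log2, SE; limma adjusted p = 0.0194) and -0.35 ± 0.08 in starved cells (adjusted p = 0.0170), levels 1.26-fold and 1.27-fold lower. The comparisons share no array, though both use 1 estimate of the gene's spread. In starved cells the call ended without array 2 of shCDK8 (adjusted p = 0.116) or array 1 or 2 of shControl (0.0924 and 0.0530). After serum it ended without array 2 of shCDK8 (0.130) or array 1 or 2 of shControl (0.118 and 0.0703).

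Serum did not move PTGES past the threshold in either line, by -0.07 ± 0.08 in shCDK8 cells (adjusted p = 0.811) and -0.08 ± 0.08 in shControl cells (0.813). Its difference of responses was 0.01, with a 95% interval from -0.24 to 0.26.

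The other terminal synthases passed in no comparison. PTGES2, a membrane-associated prostaglandin E synthase, read 8.28 to 8.47 over the 8 arrays, and PTGES3, a cytosolic synthase better known as the HSP90 co-chaperone p23, read 11.07 to 11.31. In both genes all groups that are neighbours in the order of levels overlapped. The starved lines, not neighbours in that order, did not overlap for PTGES3. The line difference of PTGES2 was 0.04 after serum (95% interval -0.13 to 0.22) and 0.02 in starved cells (-0.15 to 0.20). That of PTGES3 was -0.07 after serum (-0.27 to 0.12) and -0.15 in starved cells (-0.34 to 0.05).

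HPGD, the dehydrogenase that inactivates prostaglandin E2, was dim and flat. It read 3.82 to 4.04 over the arrays, and neighbouring groups in the order of its levels overlapped. Serum-treated and starved shCDK8 arrays did not overlap. Its changes lay between -0.11 (serum in shCDK8 cells) and 0.01 (starved line difference), none past the threshold.

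PTGER4, the EP4 receptor, was higher after serum in both lines but missed the threshold over all genes. It read 7.03 and 7.40 in serum-treated shCDK8 cells, against 6.65 and 6.67 in starved shCDK8 cells. It read 7.14 and 7.27 in serum-treated shControl cells, against 6.74 and 6.73 in starved shControl cells. Serum-treated arrays lay above starved ones in each line without overlap, and the lines overlapped after serum. The response was 0.55 ± 0.11 in shCDK8 cells (1.47-fold, 95% interval 0.31 to 0.80, limma adjusted p = 0.121) and 0.47 ± 0.11 in shControl cells (1.38-fold, 0.22 to 0.71, adjusted p = 0.202). The unadjusted p-values of limma were 5.44e-04 and 0.00177. The responses differed by 0.09 between the lines, with a 95% interval from -0.26 to 0.43.

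The calls on PTGER4 changed with the processing. In shCDK8 cells it passed with an intensity trend (adjusted p = 0.0285) and without serum array 1 of shCDK8 (0.0122, change 0.74), over a range up to 0.607 among its alternatives. In shControl cells it passed without either serum array of shCDK8 (0.0324 each), the duplicates that lay furthest apart, over a range up to 0.642.

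PTGER2, the EP2 receptor, was lower in starved shCDK8 cells. It read 5.06 and 4.82 there, against 5.24 and 5.26 in starved shControl cells. After serum it read 5.07 and 5.02 in shCDK8 cells, against 5.20 and 5.10 in shControl cells. The lines did not overlap at either time, and the change passed in starved cells (-0.30 ± 0.09, 1.23-fold lower, adjusted p = 0.0442) and missed after serum (-0.10 ± 0.09, adjusted p = 0.539). The difference of its responses was 0.20 with an interval from -0.07 to 0.48, so a difference between the times was not shown. The starved call was close to the threshold. It ended without starved array 2 of shCDK8 (-0.18, adjusted p = 0.267), starved array 1 or 2 of shControl (0.127 and 0.158), either serum array of shCDK8 (0.0608 each) or of shControl (0.0608 each), with an intensity trend (0.0571) and in a fit of the starved arrays alone (0.0848).

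Among the 7 tested members, limma called 0 in the serum response of shCDK8 cells and 0 in that of shControl cells, where 0.255% and 0.462% of all genes were called in either direction. At an unadjusted p below 0.05 there was 1 in each, PTGER4, beside 9.59% and 9.02% of all genes. In the line difference after serum 1 fell (PTGES), where 6.54% of all genes were lower, and in starved cells 2 fell (PTGES and PTGER2), where 6.28% were lower. None was higher, where 7.70% and 7.13% of all genes were. In the difference of responses 0 passed in limma, and 0 had an unadjusted p below 0.05. The groups did not overlap for 2 of the 7 members in the serum response of shCDK8 cells and 4 in that of shControl cells, beside 41.2% and 39.7% of all genes. They did not overlap for 2 of the 7 after serum and 5 in starved cells between the lines, beside 53.9% and 52.1% of all genes. A lack of overlap between 2 arrays and 2 arrays was thus common on these arrays.

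**Figure D2:**
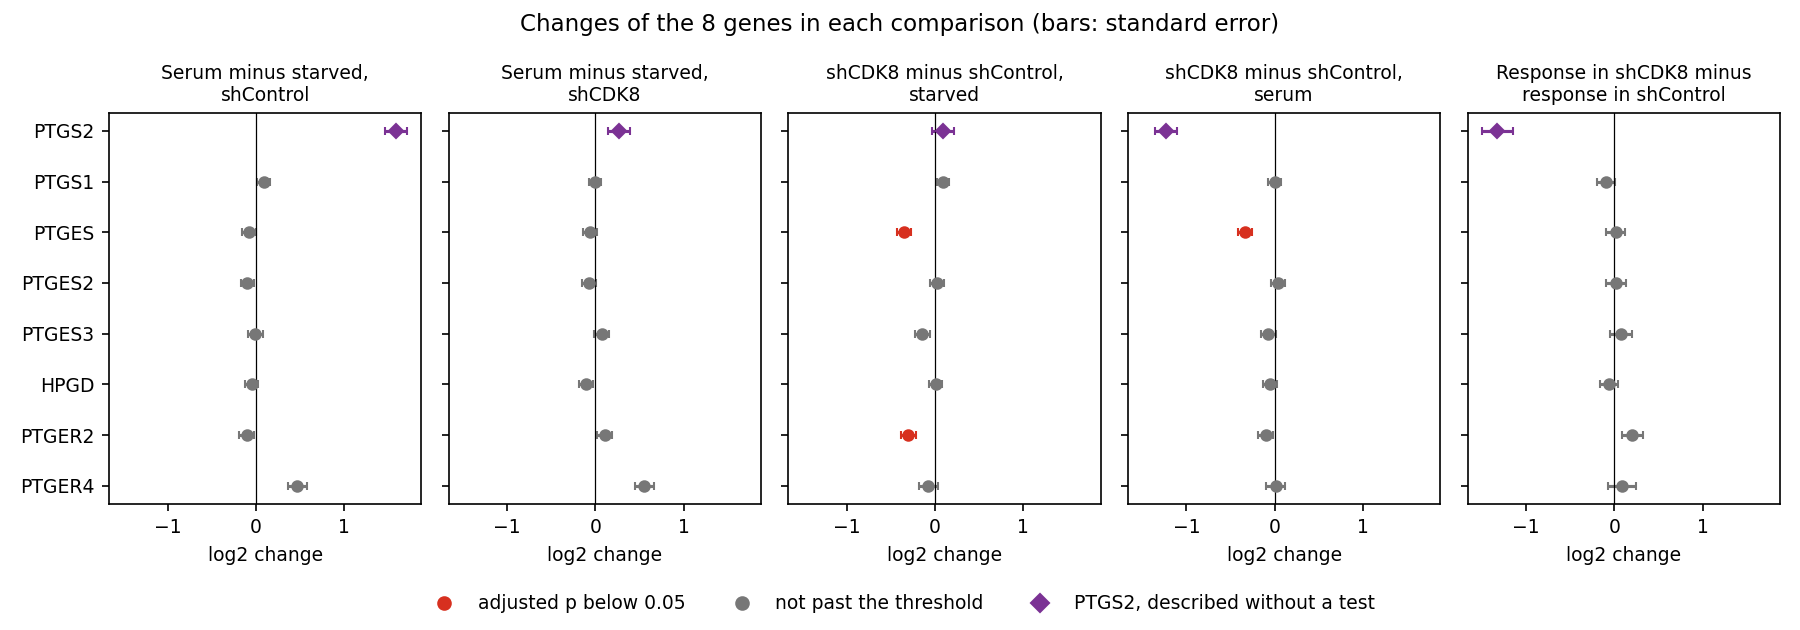
Log2 change (x axis, points) with its standard error (bars) for the 8 genes (y axis) in the 5 comparisons. Red points passed an adjusted p of 0.05, grey points did not, and purple diamonds mark PTGS2, which is described without a test. PTGES lies at -0.33 after serum and -0.35 in starved cells between the lines, and PTGS2 lies at 0.27 for serum in shCDK8 cells and 1.59 in shControl cells.

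The genes whose levels followed PTGS2 most closely were sought among the 368 other genes that spanned at least 1 log2 unit over the 8 arrays. The 10 with the highest Pearson r were SNORD102, ANKRD37, DUSP2, HBEGF, SERTAD3, EGR3, GDF15, SNORD14E, MIR22HG and CSRNP1, with r from 0.89 to 0.97 and Spearman's rho from 0.67 to 0.93. The 8 arrays form 4 groups and the serum-treated shControl pair stands apart, so r rests largely on that pair. Over the 6 arrays without it, r ranged from 0.27 (ANKRD37) to 0.87 (SNORD102). Of the 10 genes, 5 were also among the 10 with the highest rho.

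These genes are of different kinds. DUSP2 is a phosphatase of MAP kinases, HBEGF a ligand of the EGF receptor, EGR3 and CSRNP1 are transcription factors, GDF15 is a secreted cytokine, SERTAD3 a transcriptional coregulator, MIR22HG the host transcript of a microRNA, and SNORD102 and SNORD14E are small nucleolar RNAs. HBEGF read 7.58 and 7.66 in serum-treated shCDK8 cells, against 7.45 and 7.35 in starved shCDK8 cells. It read 8.18 and 8.09 in serum-treated shControl cells, against 7.54 and 7.17 in starved shControl cells. As with PTGS2, the serum-treated shControl pair was highest and the other groups lay close together. SNORD102 read 5.44 and 5.46 in serum-treated shCDK8 cells, against 5.08 and 5.25 in starved shCDK8 cells. It read 6.04 and 6.20 in serum-treated shControl cells, against 5.07 and 5.16 in starved shControl cells. All 10 had the smaller serum response in shCDK8 cells, which their choice by likeness to PTGS2 favours. In shCDK8 cells DUSP2, EGR3 and CSRNP1 still had serum responses above 1 log2 unit, at 1.52, 1.34 and 1.27, beside 0.27 for PTGS2. Promoter windows were found for 7 of the 10. Those of ANKRD37 and MIR22HG and 1 of the 2 of CSRNP1 held the cyclic AMP half-site that stands in the PTGS2 window. Of all windows, counted singly, 24.6% held it.

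**Figure D3:**
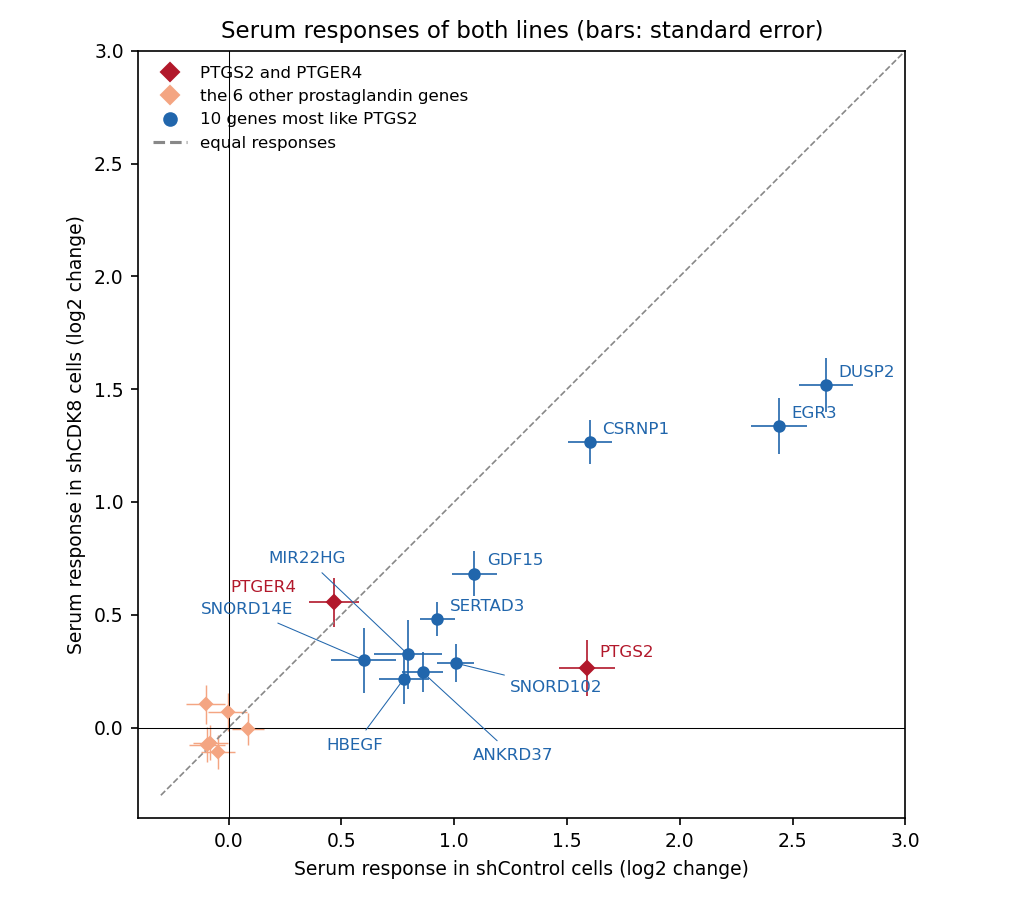
Serum response in shCDK8 cells (y axis) against that in shControl cells (x axis), as log2 changes with standard errors (bars), for the 8 prostaglandin genes (diamonds) and the 10 genes most like PTGS2 (circles). The dashed line marks equal responses. PTGER4 lies beside the line at 0.55 in shCDK8 and 0.47 in shControl cells, whereas PTGS2 lies far below it at 0.27 in shCDK8 and 1.59 in shControl cells.

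The wider pathway was covered by 8 lists of 113 genes, of which 102 were measured. Between the lines after serum 10 rose and 11 fell in shCDK8 cells, 20.6% of the measured genes beside 14.2% of all genes. In starved cells 8 rose and 7 fell, 14.7% beside 13.4%. A total of 14 genes passed at both times, 7 higher and 7 lower in both, out of the 21 and the 15. The median change over the listed genes was 0.01 after serum and -0.02 in starved cells, beside -0.01 over all genes at each time. Serum raised 3 listed genes in shCDK8 cells (2.94%) and 4 in shControl cells (3.92%), beside 0.255% and 0.462% of all genes called in either direction. All of them were transcription factors or RNA-binding proteins, and none was an enzyme or receptor of the pathway. The lists were chosen with earlier results of these data known, so no conclusion is drawn from these shares. In the difference of responses 0 of the 102 passed in limma, and 3 had an unadjusted p below 0.05, beside 3.82% of all genes.

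Of the 18 measured genes of arachidonic acid release, 1 rose and 4 fell in shCDK8 cells after serum, beside 7.70% and 6.54% of all genes. In starved cells 1 rose and 3 fell, beside 7.13% and 6.28%. PLA2G4A encodes the cytosolic phospholipase A2 that feeds the cyclooxygenases, and it is a coding neighbour of PTGS2 in the genome. After serum it read 6.07 and 6.25 in shCDK8 cells, against 6.62 and 6.57 in shControl cells. In starved cells it read 5.98 and 6.04 in shCDK8 cells, against 6.47 and 6.38 in shControl cells. It was thus lower in shCDK8 cells at both times, by -0.43 ± 0.08 after serum (adjusted p = 0.00477) and -0.41 ± 0.08 before it (0.00647). It showed serum responses of 0.15 and 0.17 in shCDK8 and shControl cells, both short of the threshold (adjusted p = 0.566 and 0.558).

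MGLL, the lipase that frees arachidonic acid from 2-arachidonoylglycerol, was lower in shCDK8 than in shControl cells. The fall was 0.46 after serum and 0.47 in starved cells on the log2 scale. LPCAT3, which returns arachidonic acid to phospholipids, was lower in shCDK8 cells by 0.34 and 0.30. PLA2G10, a secreted phospholipase, was lower in shCDK8 cells after serum (-0.57 ± 0.07) and missed in starved cells (-0.18, adjusted p = 0.136). The difference of its serum responses did not pass (-0.39 ± 0.10, adjusted p = 0.940). Its probe set was dim, with group means from 4.31 to 4.88. ANXA1, the glucocorticoid-induced protein known as an inhibitor of phospholipase A2, was the member that rose. It read 11.74 and 11.76 in serum-treated shCDK8 cells, against 11.10 and 11.11 in serum-treated shControl cells. In starved cells it read 11.72 and 11.74 in shCDK8 cells, against 11.21 and 11.03 in shControl cells. The rises were 0.64 ± 0.07 and 0.61 ± 0.07 (adjusted p = 3.90e-04 and 5.52e-04), with the lines far apart beside the spread of duplicates.

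Of 7 other prostanoid synthases measured, AKR1C3 alone passed, and it was higher in shCDK8 cells at both times. Of all genes, 7.70% were higher after serum and 7.13% in starved cells. AKR1C3 is a reductase that makes prostaglandin F and also handles steroids. It was higher in shCDK8 cells by 0.53 ± 0.09 after serum (adjusted p = 0.00472) and 0.40 ± 0.09 in starved cells (0.0205). Its probe set was dim, with group means from 5.08 to 5.61. Of 5 genes of transport and breakdown, 2 were higher in shCDK8 cells after serum and 2 in starved cells, beside 7.70% and 7.13% of all genes. The median line difference of the 5 was 0.25 and 0.16. PTGR3, a reductase of 15-keto prostaglandins, read 8.59 and 8.51 in serum-treated shCDK8 cells, against 7.70 and 7.80 in serum-treated shControl cells. In starved cells it read 8.48 and 8.66 in shCDK8 cells, against 7.77 and 7.84 in shControl cells. These are rises of 0.80 ± 0.08 and 0.77 ± 0.08 (adjusted p = 1.70e-04 and 2.38e-04), or 1.74-fold and 1.70-fold. ABCC4, an exporter of prostaglandins, passed after serum (0.27 ± 0.07, adjusted p = 0.0418), and PTGR1, a reductase of the same breakdown route, in starved cells (0.33 ± 0.09, adjusted p = 0.0463).

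No prostanoid receptor besides PTGER2 passed. Of the 8 other listed receptor genes, PTGFRN alone passed, and it encodes an inhibitor of the prostaglandin F receptor. It was higher in shCDK8 than in shControl cells after serum (0.27 ± 0.07, adjusted p = 0.0198). Of these 8 genes, 1 thus passed after serum and 0 in starved cells, beside 14.2% and 13.4% of all genes in either direction. Of 12 lipoxygenase and leukotriene genes, 1 was higher and 1 lower in shCDK8 cells after serum, beside 7.70% and 6.54% of all genes. In starved cells 1 was higher, beside 7.13%. ALOX5, the 5-lipoxygenase, was higher in shCDK8 cells by 0.51 ± 0.09 after serum and 0.46 ± 0.09 in starved cells (adjusted p = 0.00609 and 0.0107). ALOXE3, an epidermal lipoxygenase, was lower in shCDK8 cells after serum (-0.35 ± 0.07). Serum itself moved none of PTGFRN, ALOX5 and ALOXE3 past the threshold in either line.

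Downstream of EP2 and EP4, the catalytic subunits of protein kinase A moved in opposite directions. PRKACB rose in shCDK8 cells by 0.65 ± 0.07 after serum and 0.57 ± 0.07 in starved cells (adjusted p = 2.65e-04 and 6.14e-04), while PRKACA fell by 0.35 and 0.34 on the log2 scale (adjusted p = 0.00487 and 0.00617). PDE3B, a phosphodiesterase that degrades cyclic AMP, rose by 0.66 ± 0.10 and 0.53 ± 0.10. ADCY7, an adenylyl cyclase, was higher in shCDK8 cells after serum (0.29 ± 0.07, adjusted p = 0.0196). Of the 29 measured genes of this list, 3 were higher and 1 lower in shCDK8 cells after serum, beside 7.70% and 6.54% of all genes. In starved cells 2 were higher and 1 lower, beside 7.13% and 6.28%. None passed for serum in either line in limma. At an unadjusted p below 0.05 there were 3 of the 29 in shCDK8 cells and 2 in shControl cells, beside 9.59% and 9.02% of all genes.

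Among 10 RNA-binding proteins known to act on the PTGS2 mRNA, 1 was higher and 2 were lower in shCDK8 cells at each time. The shares over all genes were 7.70% and 6.54% after serum, and 7.13% and 6.28% in starved cells. ZFP36 (tristetraprolin), which promotes decay of the PTGS2 mRNA, read 8.29 on both serum-treated shCDK8 arrays, against 9.38 and 9.33 in serum-treated shControl cells. In starved cells it read 6.67 and 6.52 in shCDK8 cells, against 7.46 and 7.48 in shControl cells. It was lower in shCDK8 cells by -1.06 ± 0.07 after serum and -0.88 ± 0.07 in starved cells (adjusted p = 1.12e-05 and 4.59e-05). Serum raised it by 1.70 ± 0.07 in shCDK8 cells and 1.89 ± 0.07 in shControl cells (adjusted p = 2.73e-06 and 1.17e-06), and the difference of responses was -0.19 (adjusted p = 1.00). Its relative ZFP36L1 differed in the other direction, by 0.75 ± 0.07 and 0.95 ± 0.07 (adjusted p = 6.57e-05 and 1.48e-05), and ZFP36L2 fell by 0.29 and 0.41 on the log2 scale. Serum raised ZFP36L1 in shControl cells (0.52 ± 0.07, adjusted p = 0.00823), a call that ended without starved array 2 (0.0936) or serum array 1 or 2 (0.0624 and 0.0956) of shControl. In shCDK8 cells it changed by 0.32 (adjusted p = 0.144), and the difference of its responses did not pass (-0.20 ± 0.09, adjusted p = 1.00).

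Of 14 transcription factors known at the PTGS2 promoter, serum raised FOS and JUN in both lines, and the other 12 did not pass. Of all genes, 0.255% were called in shCDK8 cells and 0.462% in shControl cells, in either direction. Between the lines, 0 of the 14 were higher and 3 lower after serum, beside 7.70% and 6.54% of all genes. In starved cells 0 were higher and 1 lower, beside 7.13% and 6.28%. FOS rose by 3.74 ± 0.10 in shCDK8 cells and 3.30 ± 0.10 in shControl cells, and JUN by 2.33 ± 0.12 and 3.04 ± 0.12. The difference of responses did not pass for either gene, at 0.44 ± 0.14 for FOS and -0.71 ± 0.17 for JUN (adjusted p = 1.00 and 0.910). Between the lines FOS was lower in shCDK8 cells after serum (-0.81 ± 0.10, adjusted p = 6.10e-04) and in starved cells (-1.25 ± 0.10, adjusted p = 4.17e-05). JUN was lower after serum (-0.52 ± 0.12, adjusted p = 0.0171), reading 9.47 and 9.83 in shCDK8 cells, against 10.20 and 10.15 in shControl cells. In starved cells JUN read 7.28 and 7.36 in shCDK8 cells, against 7.26 and 7.004 in shControl cells, and its line difference of 0.19 did not pass (adjusted p = 0.363). NFKB1, a subunit of NF-kB, was lower in shCDK8 cells after serum (-0.30 ± 0.06, adjusted p = 0.0107) and differed by -0.18 in starved cells (adjusted p = 0.0997).

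Single arrays decided some of these list calls. After serum, 8 of the 21 (ABCC4, ADCY7, ALOXE3, JUN, LPCAT3, NFKB1, PTGFRN and ZFP36L2) lost the threshold without at least 1 serum array: 6 each without shCDK8 array 1 or 2, 8 without shControl array 1 and 5 without shControl array 2, with adjusted p up to 0.211. In starved cells 6 of the 15 did (AKR1C3, ALOX5, LPCAT3, PDE3B, PLA2G4A and PTGR1): 6 without starved shCDK8 array 1, 2 without its array 2, 4 each without starved shControl array 1 or 2, and PTGR1 also without either serum array of shControl, with adjusted p up to 0.258.

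**Figure D4:**
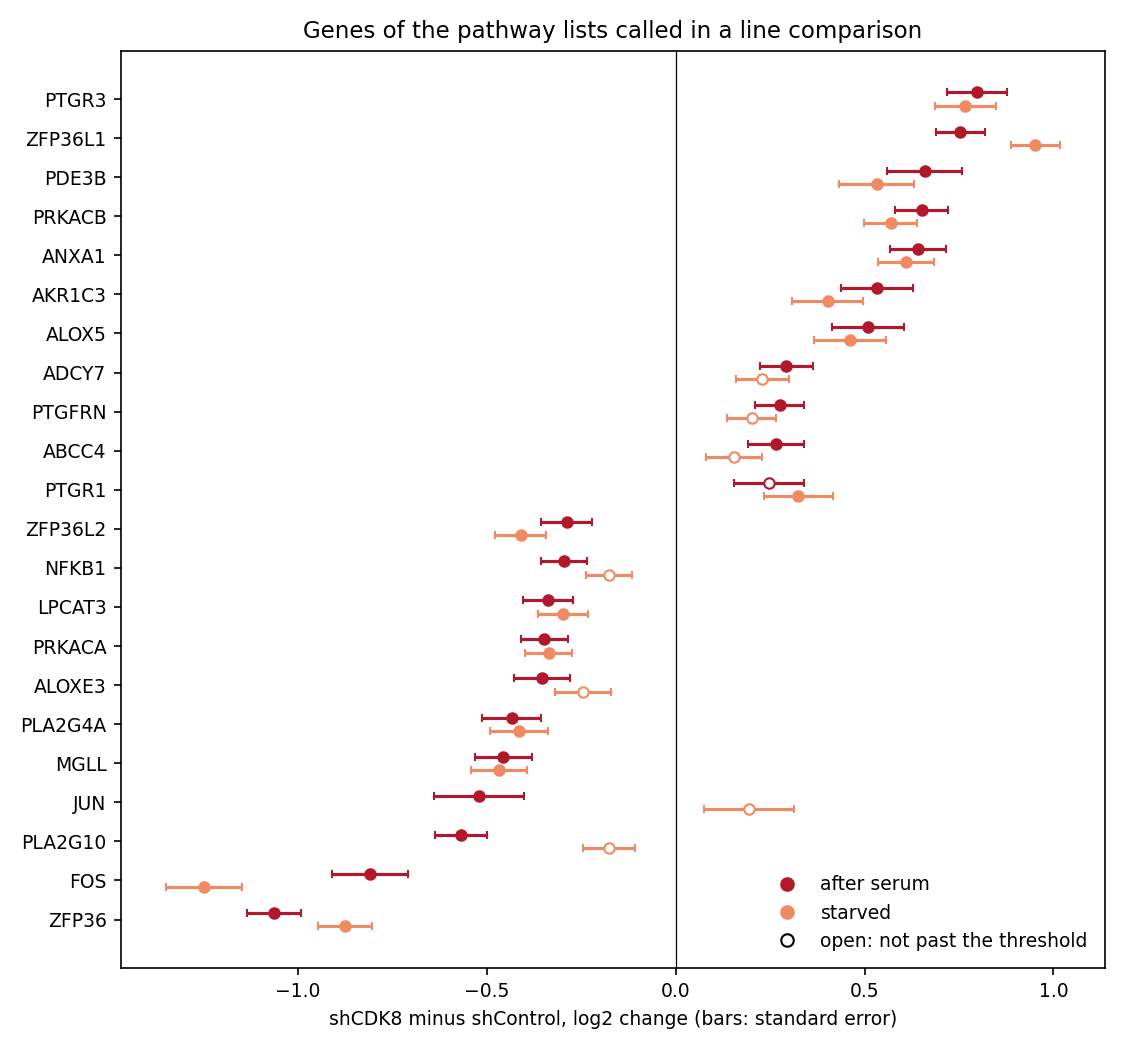
Line difference (x axis, shCDK8 minus shControl, log2 change with standard error) of the listed pathway genes that passed the threshold in a line comparison (y axis), after serum (dark red) and in starved cells (orange). Open points did not pass. PTGR3, ZFP36L1, PDE3B, PRKACB and ANXA1 lie to the right at both times, and ZFP36, FOS, MGLL and PLA2G4A to the left.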

How the data were processed

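Total RNA of 8 HCT116 samples was measured on Affymetrix human gene arrays, 1 per sample, and grouped by the sample titles. The deposited values were log2 probe set levels which the submitters' processing notes credit to RMA. RMA's version and the genome build were not stated in those notes. Of 33297 probe sets, 19460 were paired with exactly 1 gene, and where a gene had several (769 genes) the one with the highest mean was used, leaving 18417 genes. Names were updated through RefSeq (GRCh38.p14).

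In R 4.3.3, limma 3.58.1 estimated 1 mean per group for every gene (4 residual and 5.49 prior degrees of freedom). The fitting code was first tested on simulated data, and all reported values come from the 8 deposited arrays. P-values were two-sided, adjusted by Benjamini-Hochberg over all genes, with a threshold of 0.05. The precision is limited by the number of arrays. Named genes were the members, listed genes past the threshold in any of 5 comparisons, the 10 genes most like PTGS2 and the probe set of CDK8. The members and lists were chosen with earlier results of these data known, and 11 of 113 listed genes, without a probe set of their own, were not analysed here. Alternatives were an intensity trend, the compared arrays alone, a replicate block, a filter on dim genes, cyclic loess, median centring, the mean of probe sets and leaving out each array. Figures were drawn with matplotlib 3.10.9.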

Additional observations from a re-analysis of the deposited data

How the results depend on the processing

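The intensity trend, the compared arrays alone, the replicate block and the mean of probe sets leave the group means of PTGS2 as they are. They therefore test nothing about its order of groups, and the filter on dim genes removes it. Under cyclic loess and median centring, the value for PTGS2, difference of serum responses, was -1.34 each. Without starved shCDK8 array 2 the starved groups changed order. Leaving out single arrays gave a difference of responses from -1.50 to -1.15, a response in shCDK8 cells from 0.094 to 0.44 and a starved line difference from -0.081 to 0.26. Of the 7 tested members, the number called in starved cells was 2, and 1 with an intensity trend, with the compared arrays alone and without dim genes, which removes PTGER2, and 0 to 2 without single arrays. After serum it was 0 to 1 without single arrays. For the serum response it was 0 to 1 without single arrays in each line, and 1 with an intensity trend in shCDK8 cells. The listed genes called were 13 to 21 after serum without single arrays, and 5 with an intensity trend for serum in shCDK8 cells, against 3. By Spearman's rho 5 of the 10 genes most like PTGS2 stayed. Changes smaller than their standard error were given no direction, and no direction reversed.

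Over all genes, the 85 called for serum in shControl cells became 128 with an intensity trend and 33 to 85 without single arrays, and the 47 in shCDK8 cells became 100 with the trend, 28 with the compared arrays alone and 23 to 51 without single arrays. The line calls, 2624 after serum and 2470 in starved cells, became 3369 and 3139 with an intensity trend, and 2908 and 2760 without dim genes. With the compared arrays alone they were 2314 and 1963, and they also fell without single arrays.

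With the replicate number as a replicate block, 2 members and 15 listed genes were called in starved cells and 1 and 21 after serum, as without it. Every group held both numbers, so the block cannot alter the size of any change. The difference of responses of PTGS2 thus stayed at -1.32 by design, which tests nothing. Across genes, the deviations of same-numbered arrays had correlations of both signs between groups, from -0.19 to 0.13. The labels do not say that numbers mark a shared culture. The lowest correlation was between the starved groups. A block with crossed numbers there, chosen after seeing the data, called 2 members and 14 listed genes.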
